A study of Mus musculus with 9 samples.

Results

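The nuclear-encoded subunits of the mitochondrial respiratory chain and ATP synthase were described by complex and by library in the exercised gastrocnemius (calf muscle) of mice. Members were the genes of the deposited count table whose symbol begins with Nduf, Uqcr, Atp5, Cox4i, Cox5, Cox6, Cox7 or Cox8, or is Sdha, Sdhb, Sdhc, Sdhd, Cyc1 or Cycs. Assembly factors named Ndufaf were left out. This gave 87 of 23284 genes, of which 38 were assigned to complex I, 4 to complex II, 10 to complex III with cytochrome c, 18 to complex IV and 17 to complex V. Assignment was by symbol, so Ndufa4, whose protein is now placed in complex IV, was counted with complex I. Atp5s and Atp5sl (now named Dmac2), which carry an ATP synthase name in the count table, are not established subunits of the enzyme but were counted with complex V. The subunits encoded by mitochondrial DNA lie outside the rule.

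The knockout group held 4 libraries from Gprc6a fl/fl mice that carried Mck-Cre, and the control group held 5 libraries from Gprc6a fl/fl mice without a labelled Cre. All mice were 3 months old, were of the 129/C57/BL6 background and had exercised, and the type of exercise is not given in the sources used here. Gprc6a encodes a G protein-coupled receptor, and the promoter of muscle creatine kinase (Mck) drives Cre in striated muscle, so the deletion is not directed at other cells of the tissue. No group carried Cre alone and none was unexercised, so an effect of Cre and one of the deletion cannot be told apart. The labels do not say that each library is a separate animal, and p-values therefore measure only the spread between libraries. The titles of the knockout libraries name Gprc5a, while their genotype labels name Gprc6a with its letters transposed. Gprc6a itself had 0 counts in all 9 libraries, where a count of 0 allows up to 0.116 to 0.159 CPM by library (CPM here is the count relative to a common library total, scaled by TMM) for counting error alone. The count table therefore gives no check of the deletion.

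Total counts lay between 19522947 in knockout 4 and 25608659 in control 2. Markers of the labelled tissue were abundant. The 8 muscle fibre markers summed to 160600 to 197400 CPM in knockout libraries and to 149700 to 199400 CPM in control libraries. Several libraries stood apart in RNA of other cells. The 10 adipocyte markers summed to 281 to 495 CPM in knockout libraries and to 276 to 960 CPM in control libraries, highest in controls 4 and 5. In control 4 Ucp1, a brown fat marker, stood at 16.6 CPM and in control 5 at 7.03 CPM. It stood at 0.363, 0.607 and 0.233 CPM in controls 1 to 3 and at most at 0.692 CPM in any knockout library. The 8 erythroid markers summed to 68.1 to 368 CPM in knockout libraries, highest in knockouts 3 and 4, and to 54.0 to 77.4 CPM in control libraries, with 4 of the 8 (Hbb-b1, Hbb-b2, Hba-a1, Hba-a2) at 0 throughout. The 4 keratinocyte markers reached 81.5 CPM in knockout 2 and 130 CPM in control 2. The part of these cells in the results below was not tested unless a value is given. In whole muscle, fewer mitochondria-rich fibres and less RNA per fibre cannot be told apart.

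In the respiratory chain, complex I takes electrons from NADH and complex II takes them from succinate, and both pass them to ubiquinone. Complex III moves them on to cytochrome c, and complex IV hands them to oxygen. Complexes I, III and IV pump protons across the inner membrane, and complex V, the ATP synthase, uses the returning protons to make ATP. Oxidative muscle fibres are rich in these complexes, and several complex IV subunits have a form found mainly in heart and skeletal muscle beside one found in most tissues.

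No subunit differed between knockout and control muscle by edgeR's quasi-likelihood test. Of the 84 members with enough counts to test, 0 had an adjusted p under 0.05, and 0 had an unadjusted p under 0.05. The same test called 0 of 13198 genes (0%) in either direction, and 419 (3.17%) had an unadjusted p under 0.05. DESeq2 called 0 members and 0 genes as higher and 3 genes (0.0165% of 18207) as lower, with 510 (2.80%) at an unadjusted p under 0.05. With limma-voom, 0 members and 0 genes (0%) passed, and 387 (2.93%) had an unadjusted p under 0.05. The smallest unadjusted p among members was 0.26 for Ndufa12, and every member had an adjusted p of at least 0.967 in edgeR. The knockout and control libraries overlapped for all 84 tested members. Over all tested genes they did not overlap for 107 (0.811%), 58 higher (0.439%) and 49 lower (0.371%). At a share this small, the 84 members are not set apart from other genes.

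The differences were small and mostly on the same side of 0. The log2 fold change (knockout minus control) was above 0 for 72 tested members and below 0 for 12, with a median of 0.067, while the median over all tested genes was -0.002. Over all tested genes 6517 of 13198 were above 0. By length, members included, these were 235 of 318 genes under 700 bases, 1367 of 1829 from 700 to 1500 bases and 4851 of 10922 over 1500 bases. The members above 0 were 29 of 32, 28 of 31 and 15 of 21 in the same classes. By complex the median was 0.078 for complex I (35 of 37 above 0), -0.029 for complex II (1 of 4), 0.062 for complex III with cytochrome c (9 of 10), 0.064 for complex IV (12 of 16) and 0.062 for complex V (15 of 17). The extremes were -0.087 for Sdha (SE 0.083) and 0.22 for Atp5g2 (SE 0.32). The side of 0 depended on single libraries. Without knockout 3 the median of members was -0.041 with 16 above 0, and without control 1 it was -0.010 with 31 above 0. Without control 4 it was 0.017 and without knockout 4 it was 0.033. It was larger without control 5, at 0.22 with 81 above 0, without knockout 1, at 0.13, and without knockout 2, at 0.14.

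**Figure D1:**
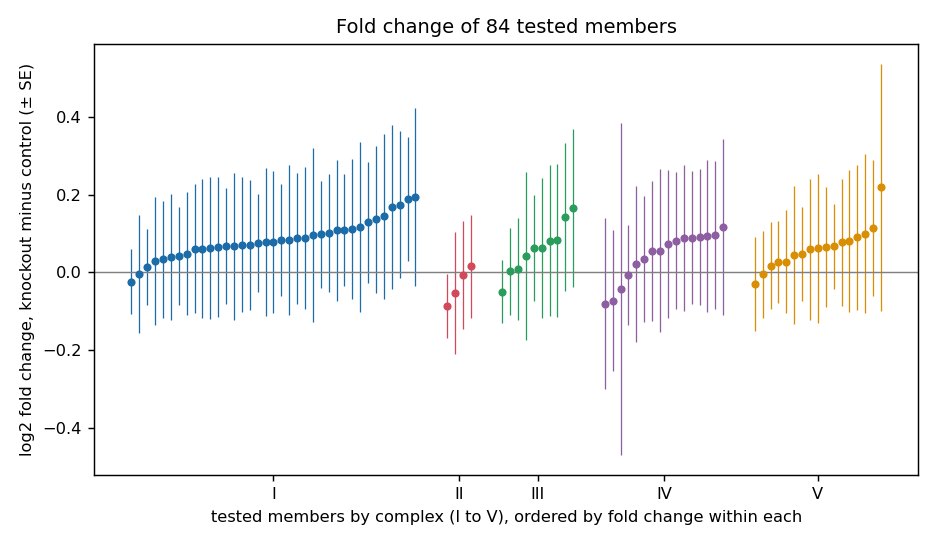
The log2 fold change (knockout minus control) of the 84 tested members is plotted with its standard error, by complex from I to V and ordered by size within each. Most points lie between 0 and 0.2, 12 lie below 0, and the standard errors of most cross 0.

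As a share of all counts in a library, the members together took 2.64%, 2.70%, 3.14% and 2.97% in knockouts 1 to 4, and 2.37%, 2.65%, 3.06%, 2.58% and 3.52% in controls 1 to 5. The lowest and the highest share were both in control libraries, and all 4 knockout libraries lay between them. The means were 2.86% ± 0.23 (SD, n = 4) in knockout muscle and 2.83% ± 0.45 (SD, n = 5) in control muscle. Complex V took the largest share, at 1.09% in knockout and 1.08% in control muscle, followed by complex I at 0.807% in knockout and 0.783% in control muscle. Complex IV took 0.402% in knockout and 0.389% in control muscle, complex III with cytochrome c took 0.362% in knockout and 0.360% in control muscle, and complex II took 0.207% in knockout and 0.218% in control muscle.

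Most members varied together from library to library, in every complex. In 69 of 84 members (82.1%) Pearson's r with the median of the other members exceeded 0.9 over the 9 libraries, as it did in 5.45% of other tested genes, a description of points that share libraries and depth. It was under 0.5 in 5 members, namely Sdha at 0.13, Ndufs1 at 0.26, Cox4i2 at 0.31, Ndufa12 at 0.38 and Uqcrc2 at 0.48. The median log2 deviation of the 84 members from their mean over the 9 libraries was -0.14, -0.16, 0.33 and 0.15 in knockouts 1 to 4. In controls 1 to 5 it was -0.36, -0.050, 0.035, -0.22 and 0.45. Knockout 3 and control 5 were thus the high libraries and control 1 the low one, and each group held libraries on both sides. One of knockout 3 and control 5 was the highest library for 79 of 84 members (94.0%), against 32.2% of all tested genes. Control 1 was the lowest for 69 members (82.1%), against 2573 of 13198 tested genes. The complexes followed the same order: in knockout 3 complexes I, III, IV and V had medians of 0.34, 0.35, 0.31 and 0.34, and in control 5 of 0.44, 0.48, 0.52 and 0.37. Complex II spread least, with medians from -0.13 to 0.22 in knockout and from -0.22 to 0.34 in control libraries.

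Short transcripts as a class, members included, moved in the same libraries. Most subunits are small proteins. A gene's length was taken as the median over its principal transcripts. For the tested members these lengths were 360 to 3171 bases, with a median of 863 bases. Over the 874 tested genes with transcripts under 1000 bases, which include members, the median log2 deviation was -0.083, -0.12, 0.30 and 0.15 in knockouts 1 to 4. It was -0.32, 0.003, -0.003, -0.21 and 0.31 in controls 1 to 5. The order of libraries was thus close to that of the respiratory chain. With each library's trend on transcript length removed, the members' deviations shrank to -0.070, -0.066, 0.064 and 0.020 in knockouts 1 to 4, and to -0.067, -0.059, 0.040, -0.043 and 0.13 in controls 1 to 5. The median fold change of members was then -0.015, with 32 above 0 and 52 below. The length classes of tested genes also include the members. Of these classes, the 32 members under 700 bases had a median fold change of 0.081, against 0.096 for the 318 tested genes of that length. The 21 members over 1500 bases had a median of 0.042, against -0.021 for all 10922 tested genes over 1500 bases. These longer members still moved by library, with a median log2 deviation of 0.25 in knockout 3, -0.23 in control 1 and 0.27 in control 5. For all tested genes over 1500 bases the medians were -0.043, 0.052 and -0.041 in these libraries. That class has no upper limit of length, while the longest tested member had 3171 bases, so the comparison is not matched for length. The members over 1500 bases include Atp5g1 (2675.5 bases), Ndufab1 (2447.5) and Ndufb2 (2413), whose median lengths need not match a single transcript. Across members, the Spearman correlation of fold change with length was -0.29 (n = 84 genes, which share the same libraries and are not independent replicates).

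**Figure D2:**
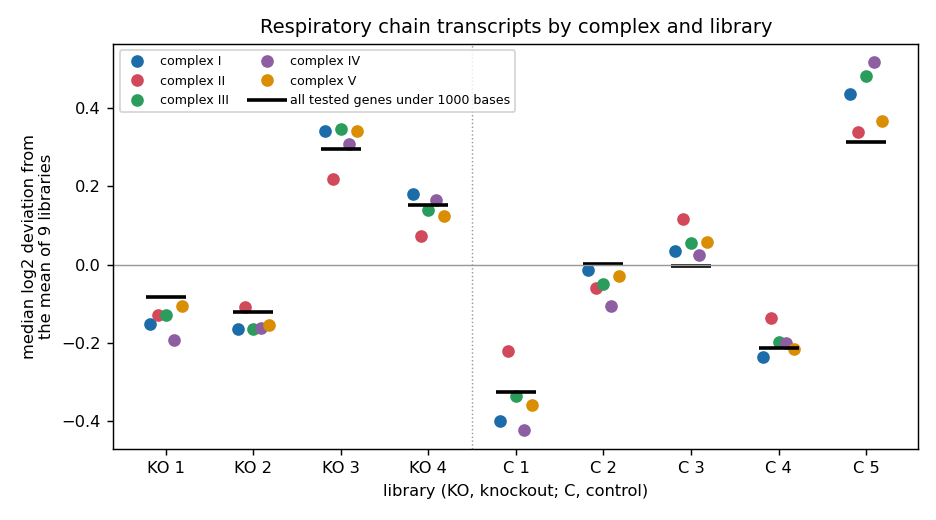
Each point is the median log2 deviation of the members of a complex from their mean over the 9 libraries, for knockouts 1 to 4 and then controls 1 to 5, and the black bar is the same for all tested genes with transcripts under 1000 bases. The 5 complexes sit close to each other and to the bar within most libraries, high in knockout 3 and control 5 and low in control 1.

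**Figure D3:**
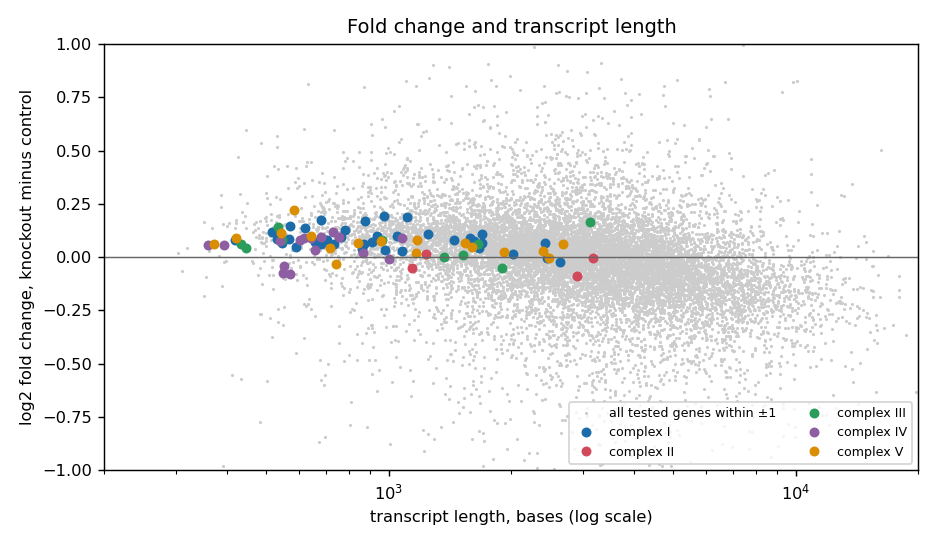
The log2 fold change (knockout minus control) is plotted against transcript length on a log axis for all tested genes within 1 of 0 (grey) and for the tested members by complex (colours). Members run from 360 to 3171 bases, at the short end of the tested genes.

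Complex I has a core of subunits that bind flavin and iron-sulphur clusters and carry electrons, surrounded by many accessory subunits. The core subunit Ndufs1, which holds iron-sulphur clusters, stood at 429, 440, 455 and 455 CPM in knockouts 1 to 4, and at 456, 407, 486, 452 and 460 CPM in controls 1 to 5. Its libraries were nearly level, and the knockout values lay within the control range. The log2 fold change was -0.024 (SE 0.083), and Ndufs1 had one of the smallest spreads over libraries of any member (SD of log2 CPM 0.071, against a median of 0.285 for members and 0.237 for all tested genes). Without control 3 its fold change was 0.003. Ndufv1, which binds NADH and the flavin, had 402, 397, 523 and 474 CPM in knockout libraries against 364, 438, 446, 400 and 532 CPM in control libraries. It was high in knockout 3 and control 5 and low in control 1, the order of most members. Ndufv2, its iron-sulphur partner, averaged 390 ± 55.4 CPM in knockout and 362 ± 68.8 CPM in control muscle. Ndufs7, a core subunit near ubiquinone, averaged 323 ± 66.4 CPM in knockout and 310 ± 73.4 CPM in control muscle. Ndufs8 averaged 136 ± 21.8 CPM in knockout and 133 ± 25.8 CPM in control muscle, and Ndufs3 averaged 139 ± 20.9 CPM in knockout and 130 ± 21.4 CPM in control muscle (SD, n = 4 and 5 here and below).

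Among accessory subunits of complex I, Ndufa12, Ndufb4 and Ndufc2 had the smallest p-values above 0. Ndufa12 stood at 43.0, 43.6, 42.0 and 72.1 CPM in knockouts 1 to 4, and at 40.5, 46.4, 46.8, 39.3 and 46.9 CPM in controls 1 to 5. Knockout 4 stood far above all other libraries, which lay close together. The fold change was 0.19 (SE 0.16, unadjusted p = 0.26, adjusted p = 0.967 in edgeR), and without knockout 4 it was -0.038. Ndufc2, a membrane-arm subunit, had 98.8, 95.8, 129 and 121 CPM in knockout libraries, against 72.9, 83.4, 104, 84.7 and 147 CPM in control libraries. All 4 knockout values lay above those of 3 controls, yet control 5 was the highest of all. Its fold change was 0.17 (SE 0.19), or 0.083 without control 1, 0.095 without knockout 3 and 0.37 without control 5. Ndufb4 had a fold change of 0.19 (SE 0.23), or 0.058 without knockout 3 and 0.37 without control 5. Its level was low, 5.50 ± 1.22 CPM in knockout and 4.81 ± 1.46 CPM in control muscle. Of the 50-base words of its transcripts, 37.0% also occurred in transcripts of other genes, which makes its counts uncertain. Ndufab1, the acyl carrier protein of mitochondria, averaged 29.8 ± 2.97 CPM in knockout and 29.9 ± 6.57 CPM in control muscle, with a fold change of -0.004 (SE 0.15) that changed side under several settings. Together with Ndufs1 it was the only complex I member below 0.

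Scaled to transcript length, Ndufa4 was the most abundant member named for complex I, at 817 ± 142 CPM per kb in knockout and 769 ± 176 CPM per kb in control muscle. Its paralogue Ndufa4l2, which is induced by low oxygen in many cells, stood at 13.1 ± 2.49 CPM per kb in knockout and 12.2 ± 1.84 CPM per kb in control muscle. Of the summed level per length of this pair, Ndufa4l2 made up 1.62% ± 0.47 in knockout and 1.59% ± 0.17 in control muscle.

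Complex II, succinate dehydrogenase, is also an enzyme of the tricarboxylic acid cycle and has no subunit from mitochondrial DNA. It was the complex with a median fold change below 0. Sdha, the flavin-binding subunit that oxidises succinate, stood at 901, 876, 870 and 989 CPM in knockouts 1 to 4, and at 924, 984, 1014, 944 and 961 CPM in controls 1 to 5. Knockouts 1 to 3 lay below every control library, and knockout 4 lay above 4 of the 5. The fold change was -0.087 (SE 0.083, unadjusted p = 0.318, adjusted p = 0.967 in edgeR). It stayed below 0 without each library in turn, between -0.13 and -0.067. Sdhb, the iron-sulphur subunit, had 473, 509, 634 and 503 CPM in knockout libraries, against 428, 508, 603, 473 and 735 CPM in control libraries. It was high in knockout 3 and control 5, and its fold change was -0.053 (SE 0.16), or 0.085 without control 5. The membrane anchors Sdhc and Sdhd had fold changes of -0.006 (SE 0.14) and 0.015 (SE 0.13). Sdhc averaged 368 ± 40.4 CPM in knockout and 370 ± 70.7 CPM in control muscle, and Sdhd averaged 282 ± 44.1 CPM in knockout and 279 ± 40.1 CPM in control muscle. Per length Sdhb was the most abundant of the complex, at 464 ± 62.3 CPM per kb in knockout and 481 ± 107 CPM per kb in control muscle.

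Complex III passes electrons through the Rieske iron-sulphur protein Uqcrfs1 and cytochrome c1 (Cyc1) and is held together by the core proteins Uqcrc1 and Uqcrc2. Uqcrc2 stood at 554, 556, 599 and 554 CPM in knockouts 1 to 4, and at 575, 550, 621, 577 and 606 CPM in controls 1 to 5. Knockouts 1, 2 and 4 were nearly equal and lay below 4 of the 5 controls, while knockout 3 lay among the higher controls. The fold change was -0.050 (SE 0.081), the only one of complex III below 0, and the spread over libraries was the smallest quoted here (SD of log2 CPM 0.065). Uqcrc1 had 820, 808, 1134 and 919 CPM in knockout libraries, against 741, 885, 920, 790 and 1073 CPM in control libraries. Knockout 3 was the highest of all and control 1 the lowest, and the fold change was 0.062 (SE 0.14). Without knockout 3 it was -0.056. Uqcrfs1 averaged 524 ± 42.7 CPM in knockout and 523 ± 71.0 CPM in control muscle, and Cyc1 averaged 540 ± 68.4 CPM in knockout and 537 ± 86.0 CPM in control muscle. Per length the hinge protein Uqcrh was the most abundant, at 579 ± 125 CPM per kb in knockout and 547 ± 146 CPM per kb in control muscle. Uqcrb, a small subunit near the ubiquinone site, had a fold change of 0.14 (SE 0.19), or 0.033 without knockout 3 and 0.31 without control 5.

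Cycs, the somatic cytochrome c that ferries electrons between complexes III and IV, stood at 21.1, 19.8, 29.4 and 27.8 CPM in knockouts 1 to 4, and at 18.1, 15.4, 24.4, 19.8 and 31.7 CPM in controls 1 to 5. Control 5 was the highest and control 2 the lowest, with every knockout library between them. The fold change was 0.17 (SE 0.20). It was 0.062 without control 2, 0.065 without knockout 3 and 0.34 without control 5. Per length it stood at 7.85 ± 1.53 CPM per kb in knockout and 7.0 ± 2.05 CPM per kb in control muscle, under Cyc1 at 356 ± 45.0 CPM per kb in knockout and 354 ± 56.6 CPM per kb in control muscle. Of the 50-base words of the Cycs transcripts, 28.5% also occurred in transcripts of other genes, and how reads of such sequence were counted is not known.

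Complex IV, cytochrome c oxidase, has a catalytic core from mitochondrial DNA and nuclear-encoded subunits around it. Cox4i1, which takes part in control of the enzyme by ATP, stood at 536, 542, 834 and 706 CPM in knockouts 1 to 4, and at 455, 611, 619, 516 and 861 CPM in controls 1 to 5. Control 5 and knockout 3 were the highest. Cox5a had 522, 527, 781 and 667 CPM in knockout libraries, against 473, 526, 607, 511 and 815 CPM in control libraries. Its high and low libraries were those of Cox4i1, and its fold change of 0.091 (SE 0.18) was -0.036 without knockout 3. Cox5b, which binds zinc, averaged 80.2 ± 15.4 CPM in knockout and 79.0 ± 23.8 CPM in control muscle. Cox7a2l, which links complexes III and IV into supercomplexes, stood at 83.6 ± 17.8 CPM per kb in knockout and 78.6 ± 16.5 CPM per kb in control muscle, with a fold change of 0.089 (SE 0.17). The 4 members below 0 were Cox6a1, Cox8a, Cox6b2 and Cox7b. Of these Cox7b averaged 275 ± 31.3 CPM in knockout and 276 ± 45.1 CPM in control muscle.

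In families with tissue forms, the muscle form made up most of the level per length in both groups. Cox6a2, the heart and skeletal muscle form, was the most abundant complex IV member per length, at 1374 ± 269 CPM per kb in knockout and 1287 ± 362 CPM per kb in control muscle. It made up 96.6% ± 0.26 of the Cox6a pair per length in knockout and 96.2% ± 0.77 in control muscle. Cox8b, the muscle form of its family in mice, made up 93.1% ± 0.90 in knockout and 92.6% ± 1.14 in control muscle. In the Cox7a family the muscle form Cox7a1 made up 62.9% ± 1.87 in knockout and 62.6% ± 1.32 in control muscle. The wider form Cox7a2 took 26.3% ± 1.23 of that family per length in knockout and 26.8% ± 0.93 in control muscle, and Cox7a2l took 10.8% ± 0.78 in knockout and 10.6% ± 0.40 in control muscle. Minor forms were rare: Cox4i2, best known from lung, was 0.416% of the Cox4i pair in knockout and 0.395% in control muscle, and Cox6b2, best known from testis, was 0.185% of the Cox6b pair in knockout and 0.193% in control muscle. Cox4i2 had a fold change of 0.12 (SE 0.23) at 2.51 ± 0.33 CPM in knockout and 2.33 ± 0.73 CPM in control muscle. Without control 3 its fold change was 0.010 and without control 5 it was 0.32. Cox6b2 had a fold change of -0.044 (SE 0.43) at 0.580 ± 0.22 CPM in knockout and 0.595 ± 0.34 CPM in control muscle.

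The promoters of the Cox8 pair are printed because the 2 forms differ so much in level here, 916 ± 204 CPM per kb for Cox8b and 66.3 ± 10.9 CPM per kb for Cox8a in knockout muscle. In control muscle these levels were 882 ± 263 CPM per kb for Cox8b and 69.8 ± 17.9 CPM per kb for Cox8a. Each window runs 5′ to 3′ on the strand of the gene, the minus strand for both, from 250 bases before to 50 after the start in RefSeq (GRCm38.p6). They lie at chr7:140900397-140900696 for Cox8b and chr19:7217567-7217866 for Cox8a. Capitals mark the E-box CAGCTG bound by myogenic factors and the letters TATAAA in Cox8b, and ACTTCCGG, the reverse complement of the ETS motif CCGGAAGT, in Cox8a.
Cox8b: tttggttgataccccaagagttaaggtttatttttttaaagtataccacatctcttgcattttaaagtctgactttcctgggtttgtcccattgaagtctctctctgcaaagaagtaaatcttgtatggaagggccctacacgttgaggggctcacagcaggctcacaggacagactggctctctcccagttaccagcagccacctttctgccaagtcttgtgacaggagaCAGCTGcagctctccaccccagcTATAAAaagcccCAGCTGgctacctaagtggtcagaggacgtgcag
Cox8a: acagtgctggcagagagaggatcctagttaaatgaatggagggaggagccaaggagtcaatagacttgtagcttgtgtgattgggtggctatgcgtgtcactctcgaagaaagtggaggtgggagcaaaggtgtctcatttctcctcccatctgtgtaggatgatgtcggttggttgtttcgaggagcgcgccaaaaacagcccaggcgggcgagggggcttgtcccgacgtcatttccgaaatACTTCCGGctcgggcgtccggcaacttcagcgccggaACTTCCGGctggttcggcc
Both strands were searched. The Cox8b window holds CAGCTG at 2 places and TATAAA at 1, and no ETS motif, while the Cox8a window holds the ETS motif at 2 places and neither of the others. The windows of Cox7a1, the muscle form of the Cox7a family, and of Cox7a2 were searched too and hold none of these motifs.

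A RefSeq window was given for 71 of the 87 members. CAGCTG occurred in 6 of these (8.45%) and in 17.4% of the 17491 protein-coding genes with a window. A gene counted once if any of its windows held the motif. TATAAA occurred in 7 members (9.86%) and 14.8% of those genes, and CCGGAAGT in 5 (7.04%) and 5.69%. The NRF1 motif, of a factor known to bind promoters of respiratory chain genes, occurred in 5 members (7.04%) and in 1.47% of those genes. The motif of the estrogen-related receptors, TCAAGGTCA, occurred in 2 (2.82%) and in 0.377%, and the cyclic AMP response element TGACGTCA in 5 (7.04%) and in 2.54%. These are matches of letters, not measured binding.

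Cox6a1 and Cox8a are the forms of most tissues, and both took a small share of their family. Cox6a1 stood at 24.7, 23.9, 33.4 and 27.3 CPM in knockouts 1 to 4, and at 17.6, 24.2, 26.0, 33.9 and 43.0 CPM in controls 1 to 5. Control 5 was the highest and control 4 the next, although most members were low in control 4. As a share of the Cox6a pair per length it was 3.77%, 3.30%, 3.29% and 3.21% in knockout libraries, against 3.30%, 3.17%, 3.49%, 5.09% and 3.87% in control libraries. Cox8a stood at 31.3, 34.3, 45.1 and 35.3 CPM in knockout libraries and at 26.1, 34.1, 38.1, 40.8 and 52.9 CPM in control libraries. Its share of the Cox8 family was 7.24%, 7.66%, 6.93% and 5.59% in knockouts 1 to 4, against 7.15%, 6.42%, 7.40%, 9.36% and 6.86% in controls 1 to 5. Both shares were highest in control 4, which also had the highest adipocyte sum, 960 CPM. Control 5, with an adipocyte sum of 871 CPM, came next to control 4 in its Cox6a1 share, at 3.87%, but not in its Cox8a share. Its Cox8a share lay below those of knockouts 1 to 3, and its Cox6a1 share was close to that of knockout 1, where the adipocyte sum was 399 CPM. The part of adipocyte RNA in these shares was not tested. The fold change was -0.081 (SE 0.22) for Cox6a1 and -0.073 (SE 0.18) for Cox8a. Without controls 4 and 5 these were 0.28 and 0.17. The 8 slow fibre markers summed to 4956 to 9897 CPM in knockout and to 5834 to 10700 CPM in control libraries, with 0 of 8 above 0 in fold change and 0 called.

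**Figure D4:**
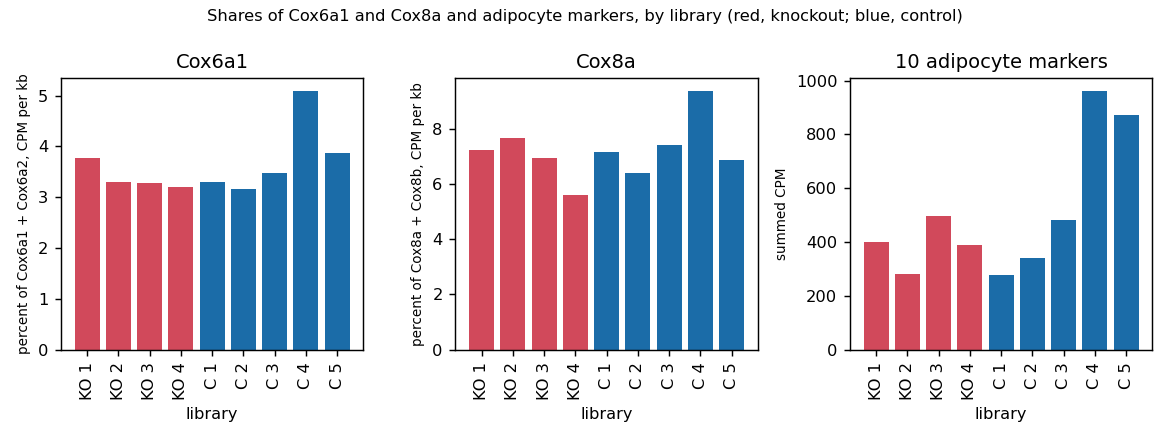
Bars give, for knockouts 1 to 4 (red) and controls 1 to 5 (blue), the percent of the family's CPM per kb held by Cox6a1 and by Cox8a and the summed CPM of 10 adipocyte markers. Control 4 has the highest bar in each panel, at 5.09%, 9.36% and 960 CPM. Control 5, at 871 CPM, has a Cox6a1 share of 3.87% and a Cox8a share of 6.86%.

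Complex V makes ATP in its F1 head and carries protons through a ring of subunit c in the membrane. Atp5b, the catalytic beta subunit, was the most abundant member of all per length, at 1872 ± 172 CPM per kb in knockout and 1839 ± 168 CPM per kb in control muscle. It stood at 3342, 3305, 4001 and 3702 CPM in knockouts 1 to 4, and at 3132, 3474, 3683, 3354 and 3977 CPM in controls 1 to 5. Knockout 3 and control 5 were the highest and control 1 the lowest. Atp5a1, the alpha subunit, had 2698, 2657, 3278 and 3057 CPM in knockout libraries, against 2572, 2887, 3065, 2754 and 3389 CPM in control libraries. All knockout libraries lay within the control range, and the fold change was -0.005 (SE 0.11). Atp5c1, the gamma subunit that turns inside the head, averaged 761 ± 86.9 CPM in knockout and 752 ± 82.3 CPM in control muscle. Atp5j, coupling factor 6 of the stalk, was the other member below 0, with a fold change of -0.031 (SE 0.12) at 363 ± 30.4 CPM in knockout and 371 ± 58.9 CPM in control muscle. Atp5s, coupling factor B, had a fold change of 0.067 (SE 0.11), or 0.006 without knockout 3, at 15.5 ± 1.73 CPM in knockout and 14.8 ± 1.21 CPM in control muscle.

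Subunit c is made from 3 genes that encode the same mature protein with different import sequences. Atp5g3 made up 94.9% ± 0.33 of their level per length in knockout and 95.0% ± 0.47 in control muscle. Atp5g1 made up 4.91% ± 0.28 in knockout and 4.86% ± 0.43 in control muscle, and Atp5g2 made up 0.202% ± 0.053 in knockout and 0.178% ± 0.042 in control muscle. These shares depend on the length used, which for Atp5g1 was 2675.5 bases, a median that need not match a single transcript. Not scaled to length, Atp5g1 averaged 146.4 CPM in knockout and 140.5 CPM in control muscle. Atp5g3 averaged 760.7 CPM in knockout and 737.8 CPM in control muscle. Atp5g2 stood at 1.43, 0.842, 1.94 and 1.11 CPM in knockouts 1 to 4, and at 0.680, 1.42, 1.24, 0.771 and 1.60 CPM in controls 1 to 5. The groups overlapped over most of their range, and the fold change of 0.22 (SE 0.32) was -0.019 without knockout 3.

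Some members share much of their sequence with other genes, which makes their counts uncertain. Of the 50-base words of a member's GENCODE transcripts, 87.4% for Atp5g2, 84.8% for Atp5l and 53.0% for Cox7c also occurred in transcripts of other genes, mostly predicted genes with Gm names. These 3 were low for their complexes, at 2.27, 6.38 and 30.8 CPM per kb in knockout and 1.95, 5.88 and 29.3 CPM per kb in control muscle. Atp5l, a membrane subunit needed for pairs of the synthase, had a fold change of 0.11 (SE 0.17), or 0.012 without knockout 3. Cox7c stood at 15.8, 15.6, 20.01 and 15.2 CPM in knockout libraries, against 12.4, 18.6, 14.8, 11.2 and 22.1 CPM in control libraries. The knockout libraries lay inside the control range. Shared sequence did not go with a low level in every case: Uqcrb shared 43.4% of its words and stood at 285 ± 66.4 CPM per kb in knockout and 259 ± 64.9 CPM per kb in control muscle, and Atp5o shared 34.0% and stood at 590 ± 99.4 CPM per kb in knockout and 564 ± 109 CPM per kb in control muscle. The effect of shared sequence on the levels was not tested.

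**Figure D5:**
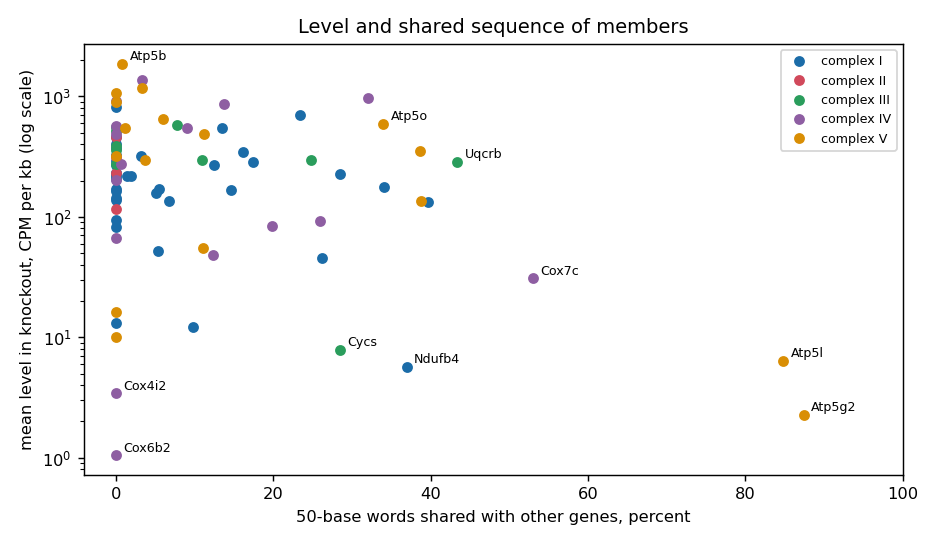
For each member with counts in knockout muscle, the mean level in CPM per kb (log axis) is plotted against the percent of its 50-base words found in other genes. Atp5g2 and Atp5l, past 80%, lie among the lowest members, while Cox4i2 and Cox6b2 are low with no shared words and Atp5o and Uqcrb are high with some.

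The 3 members that failed the count filter were Ndufs5, Cox8c and Cox7b2. Ndufs5, an accessory subunit of complex I, was listed with 0 counts in all 9 libraries, and 22.9% of its words are shared with another gene. Cox8c, a testis form, also had 0 counts in every library. Cox7b2, likewise best known from testis, had 2 counts in control 1 and 0 elsewhere. A count of 0 allows up to 0.116 to 0.159 CPM by library for counting error alone. How reads of shared sequence were counted is not known, so the 0 counts do not show that Ndufs5 was unexpressed.

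Other genes of the pathway, from lists of assembly factors and of enzymes that feed electrons to ubiquinone, gave no call either. Of 47 assembly factors 46 were tested, with 0 called higher, 0 lower, 0 at an unadjusted p under 0.05 in edgeR, 29 above 0, 17 below and a median fold change of 0.046. Among those above 0, Fam36a (Cox20), a complex IV factor, had 0.17 (SE 0.14), Sdhaf1, a complex II factor, 0.20 (SE 0.18), and Ndufaf3, a complex I factor, 0.16 (SE 0.14). Among those below 0, Atpaf1, which helps to build the F1 head, had -0.20 (SE 0.12), the complex III factor Ttc19 had -0.10 (SE 0.090) and Sdhaf2, which puts flavin on Sdha, had -0.092 (SE 0.082). Atpaf1 averaged 11.7 ± 1.51 CPM in knockout and 13.4 ± 1.34 CPM in control muscle. Of 20 tested genes of electron supply, 0 were called, 9 lay above 0 and 11 below, with a median of -0.019 and 1 at an unadjusted p under 0.05. That gene was Chdh, choline dehydrogenase, with 0.908, 0.716, 0.427 and 0.265 CPM in knockouts 1 to 4, and 1.04, 0.729, 1.32, 2.77 and 1.25 CPM in controls 1 to 5. Every control value but that of control 2 lay above all knockout values, and control 4 was the highest. The fold change was -1.26 (SE 0.44, unadjusted p = 0.0143, adjusted p = 0.967 in edgeR). The others with the smallest p were Sqrdl at 0.13 (SE 0.096), Coq4 at 0.23 (SE 0.19), Coq2 at 0.11 (SE 0.11), Pdss1 at -0.13 (SE 0.12) and Etfdh at -0.092 (SE 0.091).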

How the data were processed

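The authors deposited raw counts, unnormalized whole numbers for each gene symbol. The submitters' processing notes list bcl2fastq 1.8.4, Bowtie 0.12.7, TopHat, HTSeq 0.6.1 and the mm9 build. Per the labels' protocols, RNA of integrity number 6.7 or more was amplified with a NuGEN kit. Settings for strand and multi-mapped reads are unknown here.

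Counts were fitted in R 4.3.3 with edgeR 4.0.16 (filterByExpr with a minimum count of 10, TMM, glmQLFit robust, glmQLFTest, Benjamini-Hochberg over all tested genes, threshold 0.05). DESeq2 1.42.0, on all genes with counts, and limma-voom 3.58.1 were alternatives. SE was derived from the fold change and its F statistic, CPM is TMM-scaled, and ± is SD. The fit was tested on simulated counts. Transcript lengths (found for all 87 members) and shared 50-base words came from GENCODE M21 (GRCm38), and promoters from RefSeq. Lengths are medians over a gene's principal transcripts where any were marked. The count table has no coordinates.

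Members, lists and settings were chosen with earlier results of these data known. Genes were named by rule: core subunits, tissue isoforms, the 3 of smallest p per direction in each complex and list, the most abundant per complex, the untested, and those with mostly shared sequence. One gene that the rule takes is not reported here. Limits for a count of 0 reflect counting error alone, because the libraries were amplified.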

Additional observations from a re-analysis of the deposited data

Results flagged for a closer look

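Across 198 groups of libraries examined (each member's CPM and each isoform's share, in each genotype), 5 values lay far from the rest of their group by Dixon's criterion, where chance alone gives about 1 in 20 groups. In knockout 4, Ndufa12 at 72.1 CPM lay far above the other 3 knockouts, and the share of Cox7a2l in its family was 11.9%. In knockout 3, Uqcrc2 at 599 CPM and Cox7c at 20.01 CPM lay far above the other knockouts. In knockout 1 the share of Cox6a1 in its family was 3.77%, above the other 3.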

How the results depend on the processing

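The results were recomputed under 19 other settings, 9 of them leaving out a single library. The counts of members called were 0 in each direction under all of them. The genes called lower were 0, against 3 with DESeq2 (Dnajb1, Fosb and Has1, named after their values were seen) and 1 with a replicate block. The labels do not say whether their numbers pair the libraries. Same-numbered knockouts and controls correlated at 0.419, 0.037, 0.081 and -0.067. Differently numbered ones reached 0.51 (knockout 3 with control 5) and -0.463 (knockout 3 with control 1), so these values cannot decide it. With the replicate block, 11 members and 1446 genes had an unadjusted p under 0.05, the smallest adjusted p of a member was 0.362 and the median of members was 0.203. The SD between single control libraries was 0.308 over all members, 0.222 in complex II and 0.351 in complex IV. Leaving out 1 library moves a group mean by only part of such an SD, so it is a loose limit. Median fold changes moved by less than these SDs, though their side of 0 changed. Without each library in turn they ranged from -0.041 to 0.224 over all members, -0.026 to 0.222 in complex I, -0.084 to 0.094 in II, -0.051 to 0.246 in III, -0.039 to 0.237 in IV and -0.035 to 0.188 in V. Without control 5 and knockouts 3 and 4 the median was -0.016 (32 above 0), and without controls 4 and 5 it was 0.192 (81 above 0). Of 24 members followed, fold changes that changed side were, with limma-voom, Ndufab1 0.017, Sdhc 0.008 and Cox6b2 0.078. With the replicate block they were Ndufab1 0.127, Sdhb 0.077, Sdhc 0.107, Cox8a 0.076, Cox6a1 0.129, Cox6b2 0.308, Atp5j 0.064 and Atp5a1 0.049. Without the 20 most abundant genes and ribosomal RNA they were Ndufab1 0.003, Sdhc 0.001 and Atp5a1 0.002. Without control 5 and knockouts 3 and 4 they were Ndufab1 0.005, Sdhd -0.094, Uqcrb -0.020, Uqcrc1 -0.032, Cox7a2l -0.069, Cox5a -0.010, Atp5l -0.084 and Atp5s -0.019. Without controls 4 and 5 they were Ndufab1 0.057, Sdhb 0.058, Sdhc 0.080, Cox8a 0.167, Cox6a1 0.284, Cox6b2 0.403, Atp5j 0.048 and Atp5a1 0.052. With the length trend removed they were Sdhd -0.067, Cox5a -0.012, Atp5l -0.016 and Atp5s -0.004. Without each library in turn the ranges that cross 0 were Atp5a1 -0.066 to 0.062, Atp5g2 -0.019 to 0.391, Atp5j -0.079 to 0.074, Cox5a -0.036 to 0.249, Cox6a1 -0.215 to 0.114, Cox6b2 -0.322 to 0.278, Cox7a2l -0.005 to 0.231, Cox8a -0.192 to 0.079, Ndufa12 -0.038 to 0.264, Ndufab1 -0.085 to 0.132, Ndufs1 -0.059 to 0.003, Sdhb -0.152 to 0.085, Sdhc -0.073 to 0.117, Sdhd -0.085 to 0.102 and Uqcrc1 -0.056 to 0.152. Those that kept their side were Cycs 0.062 to 0.344, Ndufc2 0.083 to 0.373, Ndufb4 0.058 to 0.368, Uqcrb 0.033 to 0.310, Cox4i2 0.010 to 0.321, Atp5l 0.012 to 0.203, Atp5s 0.006 to 0.134, Sdha -0.131 to -0.067 and Uqcrc2 -0.080 to -0.027. The cause was not tested.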
